A study of Oryza sativa with 36 samples.

Results

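Gene expression was compared between stage 3 and stage 2 florets of IR64, an indica rice cultivar and the wild type control of the study. The comparison used 6 poly(A) RNA-seq libraries, 3 per stage, of the 36 libraries in the series, and 26726 of the 37862 gene IDs in the count table had enough reads to be tested. The other libraries hold the remaining developing stages, numbered 1 to 5, and mature florets of IR64, and the same 6 stages of OsEPF1-oe (OsEPF1-oeS in the sampling notes), a line labelled as overexpressing the epidermal patterning factor gene OsEPF1. Developing florets were taken about 75 to 85 days after sowing from cabinet-grown plants, and each developing replicate mixed the RNA of 3 plants. Mature florets were taken about 95 days after sowing, and no number of plants per mature replicate is given here. Floret size, anther length and meiotic stage at each numbered stage were not stated in the labels, nor were the promoter and the number of clones behind the overexpression line. Whole florets were used, so a lower value can mean fewer cells of a type or less RNA per cell, and these cannot be told apart.

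A rice floret holds a lemma and palea, a pair of lodicules, stamens and a pistil. Inside each young anther, archesporial cells form the pollen mother cells and the wall layers, the innermost of which is the tapetum, a nutritive layer that feeds the meiocytes and later secretes the pollen wall. Tapetum identity follows a relay of transcription factors in which UDT1 and TDF1 act early, TIP2 and TDR follow, and EAT1 acts downstream of them. While anthers enter meiosis, the hull goes from cell division to cell expansion, and its green tissue builds chloroplasts.

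The labels do not say that replicates were grown apart beyond the mixing of plants, so the p-values reflect only how these samples vary, which may be partly technical. The 6 libraries held 23080173 to 55476576 counts. Replicates of stage 2 correlated with each other at a Pearson r of 0.988 to 0.991 across tested genes, which are not independent points. At stage 3, replicates 2 and 3 correlated at 0.990, but replicate 1 reached 0.976 with each of them, so this library stood apart. The median SD between replicates on the log2 scale was 0.13 at stage 2 and 0.25 at stage 3. Levels below are CPM (counts scaled to the TMM-adjusted library size), which are not corrected for gene length and so compare libraries and not genes. Fold changes are log2 values ± SE from an edgeR fit to all 36 libraries, calls are made at 0.05 after Benjamini-Hochberg adjustment across the 26726 genes, and list counts without stage 3 replicate 1 are given where they differ from those of the full fit.

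OsEPF1 (Os04g0637300), the gene of a secreted peptide that limits stomatal formation, was low in these control libraries. It stood at 2.11, 1.65 and 2.099 CPM at stage 2 and at 1.82, 1.46 and 0.971 CPM at stage 3. The groups overlapped, and the change of -0.52 ± 0.25 was not called (adjusted p = 0.17).

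Between stage 2 and stage 3, 5253 genes (19.7%) were called: 2959 genes were higher (11.1% of the tested genes) and 2294 were lower (8.58%). Without stage 3 replicate 1 the counts were 2541 and 2135, and 3959 genes were called in both fits. The changes upward were larger: 1468 of the higher genes changed at least 2-fold, against 439 of the lower ones (5.49% and 1.64% of the tested genes). All stage 3 libraries lay above all stage 2 libraries in 4643 of the 26726 tested genes and below them in 4418, called or not. Of those 1468 genes, 777 (52.9%) had a mean under 1 CPM at stage 2, compared with 25.3% of all tested genes. Of the 439 genes at least 2-fold lower, 168 (38.3%) were under 1 CPM at stage 2 and 58 (13.2%) had at least 20 CPM. At any size of change, 1426 of the 2294 lower genes (62.2%) had at least 20 CPM at stage 2. This compares with 996 of the 2959 higher genes (33.7%) and 36.7% of all tested genes. Under 1 CPM were 26.7% of the higher genes and 7.37% of the lower ones. Over the 6 stages of IR64, 1824 of the 2294 lower genes (79.5%) had their highest mean at stage 1, against 25.0% of all tested genes. The higher genes had their highest mean most often at stage 5 (1271 genes, 43.0%, against 15.5% of all tested genes). In mature florets 991 of them (33.5%) peaked, below the 39.0% of all tested genes. At stage 3 itself 273 (9.23%) peaked, against 5.81%. These peaks and the calls share the stage 2 and stage 3 libraries, so the shares are partly fixed by the calls. Thus 0 lower genes peaked at stage 3 and 0 higher genes at stage 2.

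**Figure D1:**
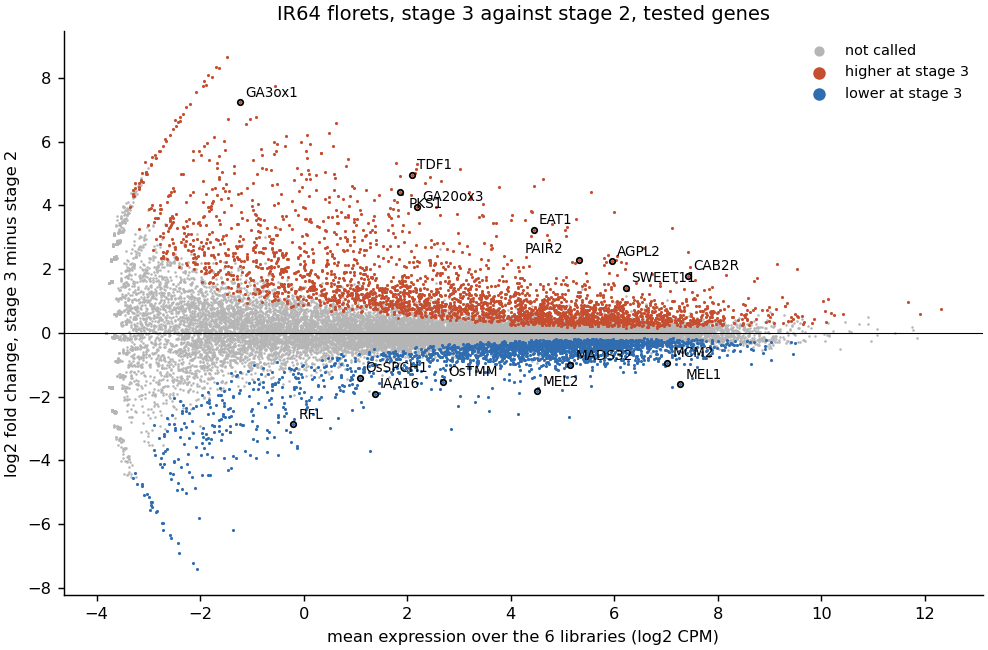
Each point is a tested gene, with its mean log2 CPM over the 6 IR64 libraries on the x axis and its log2 fold change (stage 3 minus stage 2) on the y axis. Red marks the 2959 genes called higher and blue the 2294 called lower, and the labelled rings are genes described in the text; the largest rises were of genes low at stage 2.

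Gene names come from 28 lists of which 342 members were tested, 86 of them higher and 62 lower. The lists are described by their counts and medians. Over all tested genes 11.1% were called higher and 8.58% lower, with a median log2 change of 0.00. Counts near these shares, such as 2 of 15 starch synthesis genes or 2 of 24 floral organ identity genes higher, do not set a list apart.

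**Figure D2:**
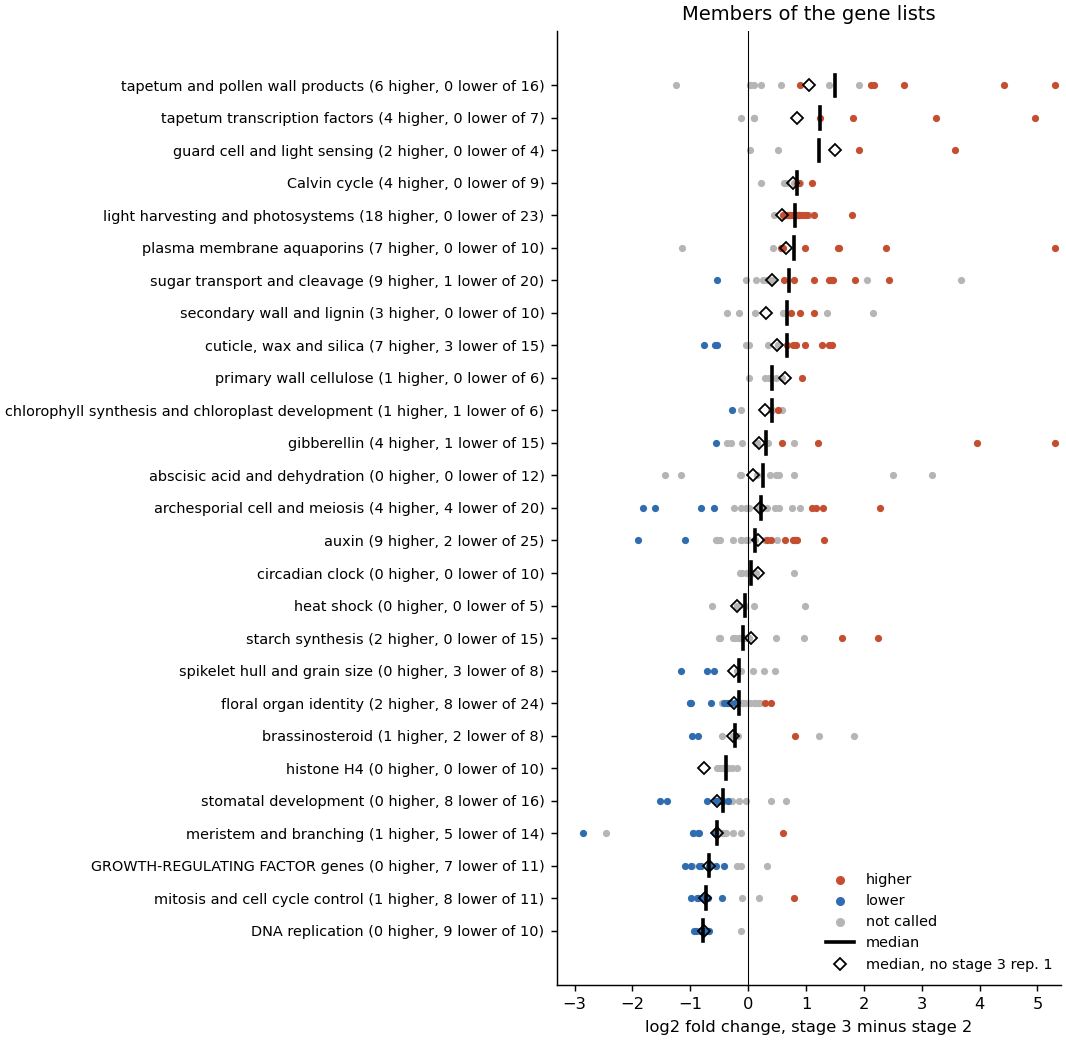
Each dot is a tested list member at its log2 fold change (stage 3 minus stage 2), red if called higher, blue if called lower and grey if not called, with larger values drawn at the right edge and the late pollen list, near 0 counts, not drawn. Bars mark list medians in the full fit and open diamonds the medians without stage 3 replicate 1. In the full fit the tapetum product and factor lists have medians of 1.5 and 1.25 and DNA replication genes one of -0.78. The 1.5 becomes 1.14 with genes near 0 counts set at their bound. The diamond of histone H4 lies well to the left of its bar.

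Of 7 tested tapetum transcription factor genes, 4 were higher and 0 lower, with a median of 1.25 (0.85 without stage 3 replicate 1, with the same counts). TDF1 (Os03g0296000), a MYB factor of early tapetum development, stood at 2.23, 0.265 and 0.335 CPM at stage 2 and at 35.8, 20.4 and 25.8 CPM at stage 3. The groups were far apart, at 4.96 ± 0.55 (adjusted p = 4.1e-06), and stage 2 replicate 1 held most of the stage 2 level: without it the change was 6.47. EAT1 (Os04g0599300), a bHLH factor that promotes tapetal cell death, stood at 12.8, 8.80 and 2.37 CPM and then at 98.4, 52.6 and 72.5 CPM. It rose by 3.24 ± 0.44 (adjusted p = 4.1e-06). TDR (Os02g0120500), a bHLH factor of tapetum degeneration, went from 43.6, 29.1 and 35.2 CPM to 166, 120 and 93.0 CPM, a rise of 1.81 ± 0.25 (adjusted p = 4.5e-06). UDT1 (Os07g0549600), a bHLH factor that starts tapetum differentiation, went from 18.4, 11.9 and 10.52 CPM to 47.5, 19.2 and 29.6 CPM (1.25 ± 0.22, adjusted p = 9.4e-05). Its groups barely separated, since the lowest stage 3 library lay next to the highest stage 2 library.

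TIP2, the bHLH partner of this relay, was not called in the same step (0.11 ± 0.17, adjusted p = 0.75), with stage means of 96.9 and 105 CPM. It had been called higher from stage 1 to stage 2 (1.09). GAMYB, the gibberellin-regulated MYB factor of the aleurone and the anther, was at 4.45, 4.24 and 4.33 CPM and then at 1.76, 6.45 and 5.85 CPM, and stage 3 replicate 1 lay below every other library. PTC1, a PHD-finger regulator of tapetal cell death, stayed at 0.119 to 0.265 CPM in all 6 libraries and reached 18.7 CPM at stage 5.

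Genes for pollen wall products moved in part. Of 16 tested genes, 6 were higher and 0 lower (5 without stage 3 replicate 1). The list median was 1.5, or 1.14 with genes near 0 counts set at their bound, and 1.06 without stage 3 replicate 1. PKS1 (Os10g0484800), a polyketide synthase of sporopollenin synthesis, stood at 1.71, 0.662 and 0.290 CPM and then at 23.9, 13.1 and 15.1 CPM. It rose by 4.43 ± 0.96 (adjusted p = 0.0014), or by 5.26 without stage 2 replicate 1, its highest stage 2 library. CYP703A3 (Os08g0131100), a fatty acid hydroxylase of the anther cuticle and exine, went from 2.42, 1.49 and 2.46 CPM to 14.5, 14.8 and 12.4 CPM (2.70 ± 0.51). CYP704B2 (Os03g0168600), a hydroxylase of the same lipid pathway, rose by 2.12 ± 0.46, and STRL2, a strictosidine synthase-like gene, by 2.17 ± 0.45. C6 (Os11g0582500), a lipid transfer protein gene of the tapetum, had 0 counts at stage 2 and 147 at stage 3, at least 43.5-fold higher against a floor of 3 counts over the group. ABCG26, a lipid transporter gene, rose by 0.89 ± 0.26 (adjusted p = 0.014), but its call was lost without stage 3 replicate 1 (adjusted p = 0.22) or without stage 2 replicate 3.

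The remaining pollen wall genes were not called. PKS2, the paralogue of PKS1 in sporopollenin synthesis, stood at means of 0.247 and 0.340 CPM at stages 2 and 3 and at 29.6 CPM at stage 4. DPW, a fatty acyl reductase gene, had its 6 libraries between 0 and 0.629 CPM. RAFTIN1, a tapetum-derived protein gene, had 3.14, 2.81 and 3.19 CPM and then 13.7, 6.33 and 4.28 CPM, and its change of 1.40 ± 0.51 missed the threshold (adjusted p = 0.053) although its groups did not overlap. The late pollen list gave 0 counts for the expansin gene EXPB1 in all 6 libraries and 1 count for PROFILIN-A.

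**Figure D3:**
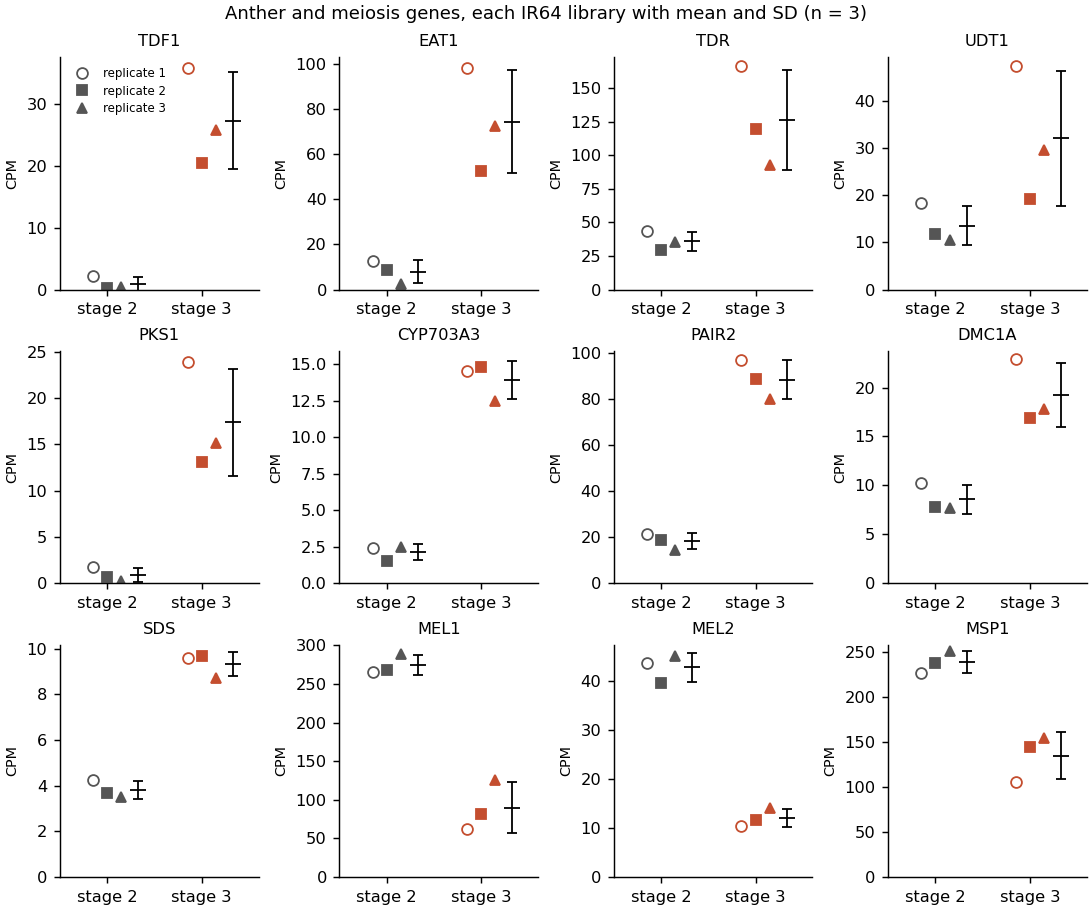
Each panel gives the CPM of a gene in the 3 stage 2 libraries (grey) and the 3 stage 3 libraries (red) of IR64, with symbols for replicates 1 to 3 and a black bar for mean and SD (n = 3). The tapetum, wall product and meiosis genes of the upper panels were higher in every stage 3 library than in any stage 2 library, while MEL1, MEL2 and MSP1 were lower in every stage 3 library. The genes shown were taken from called members without overlap between the stages, so this separation was a condition of being drawn.

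Of 20 tested genes of archesporial cells and meiosis, 4 were higher and 4 lower, with a median of 0.23, and 5 and 4 were called without stage 3 replicate 1. The higher genes were PAIR2, DMC1A, ZEP1 and SDS. PAIR2 (Os09g0506800), the HORMA-domain protein of the chromosome axis, went from 21.5, 18.8 and 14.6 CPM to 96.7, 88.4 and 79.8 CPM. That is a rise of 2.28 ± 0.21 (adjusted p = 1.3e-08) with clearly separate groups. DMC1A, a meiotic recombinase gene, rose by 1.17 ± 0.18 and ZEP1, which encodes the central element of the synaptonemal complex, by 1.11 ± 0.25. SDS, a meiosis-specific cyclin gene, went from 4.25, 3.67 and 3.51 CPM to 9.59, 9.70 and 8.74 CPM (1.30 ± 0.25, adjusted p = 4.1e-04).

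The 4 lower members were MEL1, MEL2, MSP1 and SGO1. MEL1 (Os03g0800200), a germline Argonaute of premeiotic cells, went from 266, 268 and 289 CPM to 61.8, 81.7 and 126 CPM. Every stage 3 library lay below every stage 2 library, at -1.61 ± 0.23 (adjusted p = 7.6e-06). MEL2 (Os12g0572800), an RNA-binding protein of the switch to meiosis, went from 43.6, 39.5 and 45.1 CPM to 10.4, 11.7 and 14.1 CPM (-1.82 ± 0.24, adjusted p = 1.8e-06). MSP1, the receptor kinase that limits the number of archesporial cells, fell by 0.82 ± 0.13 on the log2 scale, and SGO1, the shugoshin that protects centromeric cohesion, fell by 0.59 ± 0.12.

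Other meiosis genes were expressed without a called change. PAIR1 was at 2.42, 2.45 and 2.79 CPM and then at 4.42, 4.47 and 4.14 CPM, and its change of 0.76 ± 0.28 missed the threshold (adjusted p = 0.053). The cohesin gene REC8 (0.20 ± 0.12), the double-strand break gene SPO11-1 (0.01 ± 0.17), the crossover gene HEI10 (-0.04 ± 0.10) and the axis gene PAIR3 (0.26 ± 0.18) were not called. MER3, a crossover helicase gene, had 0.777 CPM in stage 3 replicate 1 and 6.54 and 6.24 CPM in the other replicates, so its stage 3 values were far apart within the group. AM1, a regulator of meiotic entry, was called higher without that library (0.50, adjusted p = 0.016) and not with it (0.33, adjusted p = 0.13). MIL1, a glutaredoxin gene of anther cell differentiation, had 72.4, 23.8 and 39.0 CPM at stage 3 and a mean of 0.610 CPM at stage 4.

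Of 10 tested DNA replication genes 9 were lower and 0 higher, with a median of -0.78, and 7 were lower without stage 3 replicate 1. All 6 subunit genes of the MCM helicase, which licenses and opens replication origins, fell by 0.77 to 0.94 on the log2 scale. MCM2 stood at 172, 168 and 201 CPM and then at 84.7, 90.3 and 107 CPM (-0.94 ± 0.21, adjusted p = 0.0017). PCNA, the sliding clamp of the polymerases, went from 244, 247 and 264 CPM to 182, 128 and 138 CPM (-0.75 ± 0.18). The member that was not called was RNRS1, a small subunit gene of ribonucleotide reductase (-0.13 ± 0.15), while the large subunit gene RNRL1 fell by 0.67 ± 0.15. MCM6 and ORC1, an origin recognition subunit, lost their calls without stage 3 replicate 1 (adjusted p = 0.051 and 0.061) or without stage 2 replicate 3.

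Histone H4 genes depended on a single library. The 10 genes, which are near-identical copies whose reads may be shared, summed to 2728, 2647 and 2699 CPM at stage 2 and to 2901, 1563 and 1614 CPM at stage 3. Replicate 1 of stage 3 thus sat with the stage 2 libraries while replicates 2 and 3 sat far below. With it edgeR called 0 of the 10 genes and the median was -0.39. At an unadjusted p under 0.05 there were 2 such genes, and DESeq2 called 1. Without it 9 of 10 were called lower and the median was -0.76. The summed level of DNA replication genes was 793, 726 and 787 CPM in the same 3 libraries, all below stage 2, although PCNA and RNRS1 were highest in replicate 1 among the stage 3 libraries.

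**Figure D4:**
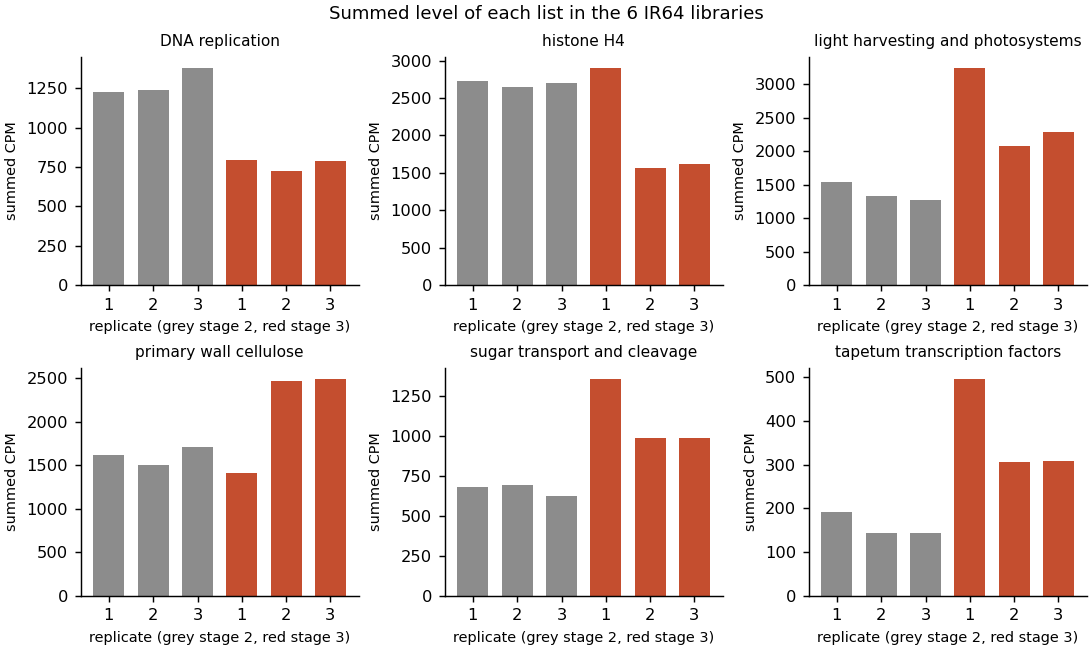
Bars give the summed CPM of a list in replicates 1 to 3 of stage 2 (grey) and stage 3 (red) of IR64. Stage 3 replicate 1 lies above the other stage 3 libraries for histone H4, light harvesting, sugar transport and tapetum factors and below them for primary wall cellulose, while the DNA replication sums of 793, 726 and 787 CPM are close together.

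Of 11 mitosis and cell cycle genes, 8 were lower and 1 higher (7 and 1 without stage 3 replicate 1), with a median of -0.72. CYCB2;2, a B-type cyclin gene, went from 69.7, 82.6 and 84.4 CPM to 34.0, 42.2 and 43.0 CPM (-0.99 ± 0.18). CDKB2;1, a mitotic cyclin-dependent kinase gene, fell by 0.80 ± 0.15. The A-type kinases, which act throughout the cycle, were not called (CDKA;1 -0.11 ± 0.15 and CDKA;2 0.18 ± 0.12). The gene that rose was KRP1, an inhibitor of cyclin-dependent kinases, which went from 20.03, 18.1 and 17.5 CPM to 32.6, 32.5 and 31.4 CPM (0.80 ± 0.10, adjusted p = 1e-06). Its relative KRP4 fell by 0.70 ± 0.14.

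GROWTH-REGULATING FACTOR genes, which promote cell proliferation in growing organs, were lower in 7 of 11 cases and higher in 0, with a median of -0.68. GRF8 went from 33.8, 34.9 and 35.4 CPM to 17.2, 16.6 and 18.4 CPM (-0.99 ± 0.11, adjusted p = 3.4e-07). GRF10 showed the greatest decrease of the list (-1.09 ± 0.22). GRF4, a gene of grain size control, was not called (-0.20 ± 0.11).

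Meristem genes were lower in 5 of 14 cases and higher in 1, with a median of -0.54 (5 and 0 without stage 3 replicate 1, 4 and 0 without stage 2 replicate 1). RFL (Os04g0598300), the rice LEAFY homologue of panicle and floret meristems, went from 1.63, 2.38 and 2.32 CPM to 0.439, 0.203 and 0.239 CPM. It fell by 2.86 ± 0.42 on the log2 scale (adjusted p = 1.4e-05), at a low level. MOC1, a GRAS factor of axillary meristems, fell by 0.96 ± 0.18, OSH6, a KNOX homeobox gene, by 0.85 ± 0.16 and FON1, the receptor kinase that limits floral meristem size, by 0.58 ± 0.12. OSH1, the main meristem KNOX gene, overlapped between stages (69.7, 55.8 and 64.9 CPM against 37.1, 47.9 and 56.1 CPM) and was not called (-0.43 ± 0.20). OSH43 was called higher by 0.60 ± 0.18, but not without stage 2 replicate 1 or stage 3 replicate 1 (adjusted p = 0.056 and 0.077).

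Floral organ identity genes changed little in size. Of 24 tested genes 2 were higher and 8 lower, with a median of -0.16 (1 and 7 without stage 3 replicate 1). Without stage 2 replicate 3 the counts were 1 and 5, and without stage 3 replicate 2 they were 2 and 4. TOB1, a YABBY gene of spikelet meristem and organ growth, went from 189, 201 and 226 CPM to 92.3, 99.7 and 119 CPM (-0.99 ± 0.16). MADS32, a MADS-box gene of floral organ identity, went from 49.8, 50.6 and 51.4 CPM to 28.9, 21.6 and 24.6 CPM (-1.01 ± 0.19). DL, the YABBY gene of carpel identity and leaf midrib, fell by 0.41 ± 0.11. MADS1, a SEPALLATA-like gene of lemma and palea, rose by 0.30 ± 0.09 and SPW1, the B-class gene of lodicules and stamens, by 0.39 ± 0.11. The call of MADS1 was lost without stage 2 replicate 1 or stage 3 replicate 3 (adjusted p = 0.054 and 0.073), and that of SPW1 without stage 2 replicate 2, stage 2 replicate 3 or stage 3 replicate 1 (0.057, 0.058 and 0.12). The C-class genes MADS3 (0.21 ± 0.12) and MADS58 (0.10 ± 0.12) were not called.

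Of 16 stomatal development genes 8 were lower and 0 higher, with a median of -0.44, and 5 were lower without stage 2 replicate 3 or without stage 3 replicate 2. OsTMM (Os01g0623000), a receptor-like protein that modulates peptide signals, went from 9.98, 12.9 and 10.6 CPM to 5.50, 2.23 and 3.85 CPM (-1.53 ± 0.25, adjusted p = 4.6e-05). OsSPCH1 (Os06g0526100), a bHLH factor gene of the start of the stomatal lineage, went from 3.70, 3.01 and 3.59 CPM to 1.45, 0.812 and 1.55 CPM. It fell by 1.41 ± 0.46 on the log2 scale (adjusted p = 0.028), a call lost without stage 2 replicate 1, stage 2 replicate 3 or stage 3 replicate 2 (adjusted p = 0.067, 0.077 and 0.13). Its relative OsSPCH2 was called lower at -0.71, but lost the call in 5 of the 6 fits without 1 library (adjusted p up to 0.25). The bHLH partner genes OsICE1 and OsICE2 each fell by 0.56 ± 0.09, and OsSCR1, a GRAS factor of asymmetric division, by 0.56 ± 0.11. OsMUTE, which acts after SPCH in committing guard mother cells, was at 1.95, 1.62 and 1.94 CPM and then at 2.60, 2.11 and 2.52 CPM. These groups did not overlap, yet the change of 0.39 ± 0.47 was not called (adjusted p = 0.66). OsFAMA, the factor of guard cell maturation, was not called either (0.66 ± 0.59). Of 4 genes of mature guard cells and light sensing, 2 were called higher at low levels. The anion channel gene SLAC1 had 3 counts at stage 2 and 47 at stage 3, a 13.9-fold ratio with a 95% exact interval of 4.47 to 69.8. PHOT1a, a blue-light receptor gene, rose by 1.92 ± 0.63. SLAC1 lost its call without stage 2 replicate 3 (adjusted p = 0.054), and PHOT1a lost it without any of stage 2 replicates 1 and 3 and stage 3 replicates 2 and 3 (adjusted p up to 0.13).

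Of the gibberellin genes, 4 of 15 were higher and 1 lower, with a median of 0.31 (5 and 1 without stage 3 replicate 1). GA20ox3 (Os07g0169700), an oxidase gene of active gibberellin synthesis, went from 1.99, 0.860 and 0.781 CPM to 24.6, 14.8 and 14.7 CPM (3.96 ± 0.38, adjusted p = 7.1e-08). GA3ox1 (Os05g0178100), which encodes the last step to active gibberellin, had 1 count over the 3 stage 2 libraries and 247 over the stage 3 libraries, a 219-fold ratio with a 95% exact interval of 39.0 to 8689. Its level of 2.40, 1.83 and 2.23 CPM at stage 3 was transient among the developing stages, with a mean of 0.0106 CPM at stage 4, and mature florets held 398 CPM. Genes that inactivate gibberellin rose as well: GA2ox3 by 1.20 ± 0.19 and EUI1, an epoxidase gene, by 0.59 ± 0.16. GID1, the gibberellin receptor gene, fell by 0.56 ± 0.10, and SLR1, the DELLA repressor gene, was not called (0.15 ± 0.11). The other oxidase genes of the same synthesis steps were not called, at 0.33 for GA20ox1, 0.34 for GA20ox2 and 0.79 for GA3ox2.

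**Figure D5:**
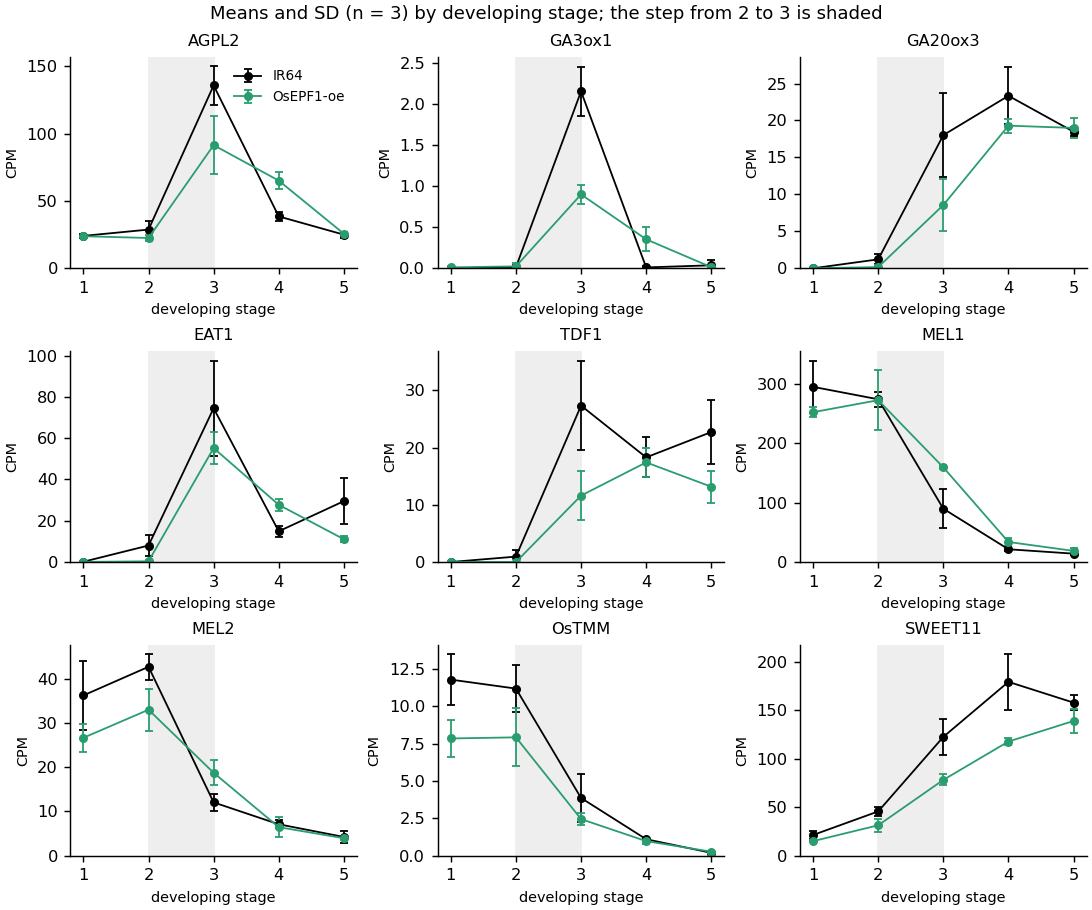
Points are mean CPM with SD (n = 3 libraries) at developing stages 1 to 5 for IR64 (black) and OsEPF1-oe (green), and the shaded band marks the step from stage 2 to stage 3. In IR64 the means of AGPL2, GA3ox1 and EAT1 peaked at stage 3 among these stages, MEL1, MEL2 and OsTMM fell through the step, and SWEET11 continued upward to stage 4.

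Of 8 brassinosteroid genes 1 was higher and 2 lower, with a median of -0.22 (1 and 3 without stage 3 replicate 1). That count of higher genes was near the share over all tested genes (11.1%). The count of lower auxin genes given below was near it as well (8.58%). BRD1, the oxidase gene of the final brassinosteroid synthesis steps, rose by 0.81 ± 0.16, while D11, an earlier cytochrome P450 gene, fell by 0.86 ± 0.19. DLT, a GRAS factor of brassinosteroid response, went from 104, 107 and 110 CPM to 52.7, 55.3 and 55.2 CPM (-0.97 ± 0.12, adjusted p = 4.7e-07). Of 25 auxin genes 9 were higher and 2 lower with a median of 0.12, and 4 and 3 were called without stage 3 replicate 1. Without stage 2 replicate 2 the counts were 5 and 2, and without stage 2 replicate 3 they were 4 and 2. IAA31, an Aux/IAA repressor gene, went from 104, 103 and 98.8 CPM to 165, 178 and 186 CPM (0.79 ± 0.09, adjusted p = 1.8e-07). IAA16 fell by 1.91 ± 0.33 and PIN1B, an auxin efflux carrier gene, by 1.09 ± 0.30.

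Of 20 tested sugar transport and cleavage genes 9 were higher and 1 lower (8 and 1 without stage 3 replicate 1), with a median of 0.71, or 0.41 without that library. SWEET11 (Os08g0535200), a sucrose exporter gene, went from 51.4, 43.7 and 41.9 CPM to 144, 114 and 109 CPM (1.42 ± 0.15, adjusted p = 4.6e-08). SUT1, a sucrose uptake transporter gene, rose by 1.85 ± 0.28 at a low level, and its relative SUT5 went from 5.41, 6.15 and 5.25 CPM to 15.3, 16.4 and 14.9 CPM (1.47 ± 0.17). CIN2, a cell wall invertase gene that splits sucrose outside the cell, rose by 1.13 ± 0.14, and the vacuolar invertase gene INV3 by 1.39 ± 0.32. SUS1, a sucrose synthase gene, was called (0.80 ± 0.28), but not without any of the stage 2 libraries or stage 3 replicate 1 (adjusted p up to 0.26). The gene that fell was CSA, a MYB regulator of sugar partitioning to the anther, from 38.6, 32.0 and 31.5 CPM to 27.6, 19.8 and 23.5 CPM (-0.53 ± 0.15). Its call was lost without stage 2 replicate 1 or stage 3 replicate 2 (adjusted p = 0.076 and 0.085).

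Of 15 starch synthesis genes 2 were higher and 0 lower, with a median of -0.09, against 3 and 1 without stage 2 replicate 2 and 2 and 1 without stage 3 replicate 3. AGPL2 (Os01g0633100), a large subunit gene of ADP-glucose pyrophosphorylase, went from 35.5, 28.3 and 22.4 CPM to 150, 121 and 136 CPM. This rise of 2.24 ± 0.15 (adjusted p = 6.1e-11) was followed by a mean of 38.5 CPM at stage 4. SSIIa, a starch synthase gene, rose by 1.63 ± 0.32 at a low level, from 0.437, 0.761 and 0.581 CPM to 2.06, 1.83 and 1.69 CPM. The other large subunit genes were not called, among them AGPL1 (-0.22 ± 0.10) at stage means of 411 and 352 CPM.

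Plasma membrane aquaporin genes, which encode water channels, were higher in 7 of 10 cases and lower in 0, with the same counts without stage 3 replicate 1 and a median of 0.79. PIP2;1 went from 1161, 1059 and 1117 CPM to 1798, 1540 and 1714 CPM (0.60 ± 0.11, adjusted p = 1.8e-04). PIP1;2 went from 23.0, 22.7 and 21.7 CPM to 83.7, 55.1 and 59.3 CPM (1.56 ± 0.22). PIP2;5 had 0 counts at stage 2 and 70 at stage 3, at least 20.7-fold higher.

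Of 23 light harvesting and photosystem genes 18 were called higher and 0 lower, with a median of 0.81, and all 23 had a positive change. Without that library 2 were called and the median was 0.59. Their summed level was 1533, 1333 and 1277 CPM at stage 2 and 3242, 2075 and 2293 CPM at stage 3, so that replicates 2 and 3 also lay above every stage 2 library. The count of calls was also lower without stage 2 replicate 2 (9) or stage 2 replicate 3 (6). CAB2R, a chlorophyll a/b-binding protein gene of photosystem II, went from 87.4, 126 and 69.3 CPM to 377, 349 and 253 CPM (1.79 ± 0.42, adjusted p = 0.0028). In the Calvin cycle list 4 of 9 genes were higher (3 without stage 3 replicate 1), among them RCA, the Rubisco activase gene, which went from 15.1, 12.3 and 15.7 CPM to 25.8, 23.2 and 29.3 CPM (0.86 ± 0.18). Of 6 genes of chlorophyll synthesis and chloroplast development 1 was higher and 1 lower (0 and 0 without stage 3 replicate 1). GLK1, a factor of chloroplast development, was not called (0.42 ± 0.18). GLK2 was called lower by 0.28 ± 0.10, and CHLH, a chlorophyll synthesis gene, higher by 0.52 ± 0.19, but each lost its call in 5 of the 6 fits that left out 1 library (adjusted p up to 0.18 and 0.24).

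Genes of the primary wall cellulose synthase were also set apart by that library, in the other direction. Their summed level was 1613, 1506 and 1710 CPM at stage 2 and 1417, 2470 and 2498 CPM at stage 3, with replicate 1 below the stage 2 libraries. With it 1 of 6 genes was called, CESA8 (0.93 ± 0.26, adjusted p = 0.011, lost without stage 3 replicate 2 or 3 with adjusted p up to 0.082). Without it 4 of 6 were higher, CESA1 by 0.82, CESA3 by 0.58 and CESA5 by 0.68 besides CESA8 by 1.22. Secondary wall and lignin genes were higher in 3 of 10 cases with a median of 0.68 (0.31 without stage 3 replicate 1). The count was 5 without stage 2 replicate 1 and 2 without stage 2 replicate 3 or stage 3 replicate 3. Among them were the phenylpropanoid gene C4H (0.90 ± 0.22) and MYB61 (0.74 ± 0.19), a regulator of wall synthesis. MYB61 lost its call without stage 3 replicate 3 (adjusted p = 0.080). The secondary wall cellulose synthase genes CESA4, CESA7 and CESA9 were not called (-0.16 ± 0.24, -0.36 ± 0.84 and 0.12 ± 0.69).

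Cuticle, wax and silica genes moved in both directions, with 7 of 15 higher, 3 lower and a median of 0.67, and 4 higher and 1 lower without stage 3 replicate 1 (5 and 1 without stage 2 replicate 3). WR2, an ERF-type regulator of wax synthesis, went from 8.70, 9.63 and 9.31 CPM to 24.8, 27.1 and 23.9 CPM (1.45 ± 0.12, adjusted p = 1.5e-09). WDA1, a wax gene of the anther epidermis, rose by 0.67 ± 0.13. ONI1, a fatty acid elongase gene of the shoot epidermis, rose by 0.82 ± 0.21, but its stage 3 values were 86.9, 52.9 and 47.9 CPM and the call was lost without replicate 1 (adjusted p = 0.10). GL1-2, a wax gene, fell by 0.77 ± 0.21, a call lost without stage 3 replicate 3 (adjusted p = 0.062).

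Of 8 spikelet hull and grain size genes 3 were lower and 0 higher, with a median of -0.16, and 2 were lower without stage 2 replicate 2, stage 2 replicate 3 or stage 3 replicate 1. GS3 (Os03g0407400), a G protein gamma subunit that restrains grain length, went from 42.9, 43.1 and 48.8 CPM to 22.8, 16.3 and 21.0 CPM (-1.16 ± 0.12, adjusted p = 5.1e-08). GW5, a gene that restrains grain width, fell by 0.71 ± 0.18. GW2, a ubiquitin ligase gene of grain width, was not called (0.08 ± 0.07).

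edgeR called 0 of 12 abscisic acid and dehydration genes, 0 of 5 heat shock genes and 0 of 10 circadian clock genes, with medians of 0.26, -0.06 and 0.05. At an unadjusted p under 0.05 these lists held 3, 1 and 0 genes, and DESeq2 called 1, 0 and 0. Between stages no clock gene was called, while GI and LHY differed widely between replicates. A missing call does not show that a gene stayed the same. LUX, a clock gene at a low level, went from 0.119, 2.75 and 0.112 CPM to 1.32, 3.29 and 0.682 CPM without a call. GI, an evening-phase clock gene, had 209, 692 and 158 CPM at stage 2 and 194, 663 and 134 CPM at stage 3. LHY, a morning-phase gene, had 709.5, 288 and 828 CPM and then 507, 294 and 858 CPM. Replicate 2 of both stages was thus high for GI and low for LHY. It was also the highest replicate of both stages for TOC1, PRR37, PRR73, PRR95 and LUX. The labels give no time of harvest, and the part of this replicate difference in other results was not tested.

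The same step in OsEPF1-oe, which shares no library with IR64, gave 3508 higher genes (13.1% of tested genes) and 2486 lower genes (9.3%), 22.4% in all. Of the 2959 genes higher in IR64, 2417 (81.7%) were also called higher there, which is 68.9% of the OsEPF1-oe calls in that direction. Of the 2294 lower genes 1682 (73.3%) were also called lower there, 67.7% of the OsEPF1-oe calls. The median log2 change of the IR64 calls was 0.99 and -0.53 in IR64 and 0.96 and -0.49 in OsEPF1-oe. Of the 148 list members called in IR64, 126 were called in the same direction in OsEPF1-oe. A test of the difference between the steps called 7 genes of 26726 (0.0262%), and 769 had an unadjusted p under 0.05. The meiosis genes SDS and ZEP1 were not called in OsEPF1-oe (0.05 ± 0.26 and 0.13 ± 0.26), but their difference between the lines was not called (interaction adjusted p = 0.61 and 1). MEL2 fell by 0.82 ± 0.23 there, against 1.82 ± 0.24 in IR64, and the difference was not called (interaction adjusted p = 0.89).

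The list members with a called difference were EAT1 and Lsi6. EAT1 stood at 0.859, 0.105 and 0.0399 CPM at stage 2 and at 64.1, 52.1 and 49.4 CPM at stage 3 of OsEPF1-oe, a rise of 7.22 ± 0.59 against 3.24 ± 0.44 in IR64 (difference 3.97 ± 0.71, interaction adjusted p = 0.034). The lines thus differed mainly at stage 2, where IR64 held 12.8, 8.80 and 2.37 CPM. Lsi6 (Os06g0228200), a silicon transporter gene, rose in IR64 from 2.78, 2.35 and 2.30 CPM to 4.46, 4.99 and 5.23 CPM (0.99 ± 0.23). In OsEPF1-oe it went from 1.10, 2.66 and 2.19 CPM to 0.646, 0.563 and 1.29 CPM (-1.24 ± 0.28; difference -2.23 ± 0.36, interaction adjusted p = 0.015). The call of the difference was lost in 9 of 12 fits without 1 library for EAT1 and in 6 of 12 for Lsi6, and in both when only the 12 libraries compared were fitted (adjusted p = 0.63 and 0.49).

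On an axis from the IR64 stage 1 mean (0) to the IR64 stage 4 mean (1), drawn over the 14164 genes called between those stages (53.0% of the tested genes), the stage 2 libraries of IR64 lay at 0.305, 0.245 and 0.292 and the stage 3 libraries at 0.717, 0.702 and 0.658. The step thus covered 0.412 of the axis, with SDs of 0.032 and 0.031 (exact permutation test, two-sided p = 0.1, the smallest that 3 against 3 libraries allow). The stage 3 replicate that stood apart by correlation lay at the upper end of the stage 3 values here. In OsEPF1-oe the means were 0.199 ± 0.033 and 0.598 ± 0.042 (SD, n = 3), a step of 0.399.

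The neighbouring steps share libraries with this one, so their values are given side by side only. From stage 1 to stage 2, 2053 genes were higher (7.68%) and 835 lower (3.12%), 10.8% in all, and from stage 3 to stage 4, 1951 were higher (7.3%) and 2123 lower (7.94%), 15.2% in all. DNA replication genes had medians of -0.43, -0.78 and -1.10 over the 3 steps, with 1, 9 and 10 of 10 members lower. Light harvesting genes had medians of 1.28, 0.81 and 0.56, with 22, 18 and 6 of 23 higher. The tapetum factors had medians of 1.38, 1.25 and -0.58. Stomatal genes were lower in 2, 8 and 10 of 16 cases.

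By ID, Os04g0223901 and Os03g0296100 showed the greatest rises among the called genes that averaged 20 CPM or more in the 6 libraries without overlap between stages. Os04g0223901 went from 5.72, 0.298 and 0.357 CPM to 86.3, 58.6 and 62.7 CPM, and Os03g0296100 from 3.58, 0 and 0.357 CPM to 54.3, 34.3 and 39.8 CPM, both at a log2 change of 5.15. In each, stage 2 replicate 1 was the highest stage 2 library, as it was for TDF1 and PKS1. Os03g0296100 is close in number to TDF1 (Os03g0296000) and ran parallel to it in IR64. Its means at stages 3, 4 and 5 were 42.79, 29.65 and 35.99 CPM, against 27.34, 18.29 and 22.72 CPM for TDF1. Whether these IDs share reads was not tested, so their rises may not be separate. Os03g0371600 fell from 107, 85.7 and 80.0 CPM to 16.85, 7.18 and 19.3 CPM (-2.64 ± 0.53), while its change in OsEPF1-oe was 0.08 ± 0.50 and the difference was not called (interaction adjusted p = 0.47). Os07g0192800 fell from 42.6, 41.6 and 44.1 CPM to 7.93, 5.40 and 8.37 CPM (-2.55 ± 0.22).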

How the data were processed

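Whole floret poly(A) RNA of 36 libraries was sequenced, and the authors deposited a table of read counts per gene ID, not normalized. Per the submitters' processing notes, Trimmomatic 0.38, HISAT2 2.1.0, featureCounts and Subread 2.0.0 were used with the build IRGSP-1.0. No source used here states the strand setting or the handling of reads that match several places, so near-identical copies and overlapping genes are uncertain. Every per-sample column was matched to a sample, and 0 were left unused.

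Counts were filtered by expression over 12 groups, scaled by TMM and fitted in edgeR 4.0.16 (R 4.3.3) with a robust quasi-likelihood model of group means over all 36 libraries (24 residual degrees of freedom). SEs are the absolute log2 change over the square root of F. The line-by-step difference came from the same fit. DESeq2 1.42.0, other scalings and filters, only the compared groups, a replicate block and leaving out each library were alternatives. The fit was tested on simulated counts, with changes placed only in well-expressed genes and the same spread for all genes and groups. That test does not cover genes at low counts or the unequal spread of the stages. A group with 0 counts was set at a floor of 3 counts for a bound, and ratios with 1 to 3 counts carry 95% exact intervals. These cover counting error only. Exact permutation over libraries used scipy 1.17.1.

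The lists, the members and the naming rule were chosen with earlier results of these data known. The rule named up to 4 called members per list and direction with a mean of at least 1 CPM and no overlap, ranked by size of change, any member of lists of 12 or fewer tested genes, and 2 IDs per direction with at least 20 CPM. Members that were not called could be named with their values, and those of the larger lists were picked with values in view. Of the called genes, C6, ABCG26, CIN2, INV3, SUS1, WDA1, FON1, OsICE2 and OsSCR1 fall outside it and were chosen after their values were seen. Gene IDs were paired with symbols by hand. Of 361 entries, 231 had a symbol in a RefSeq table of another build, and 221 lay at the same relative rank among the protein-coding genes of their chromosome, with a tolerance of 0.05. The remaining 10 entries were left out and 130 could not be checked. This tolerance and the rank basis were settled after members' values had been seen, and stricter versions drop 12 and 21 entries.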

Additional observations from a re-analysis of the deposited data

Results flagged for a closer look

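For EAT1 the step from stage 2 to stage 3 differed between the lines, at 7.22 in OsEPF1-oe against 3.24 in IR64 on the log2 scale (difference 3.97, interaction adjusted p = 0.034 in edgeR). It was higher at stage 3 in all libraries of both lines. With only the 12 libraries compared, the adjusted p was 0.63. Leaving out 1 library gave differences from 3.46 to 6.21 (the latter without OsEPF1-oe stage 2 replicate 1, its highest stage 2 library) and ended the call in 9 of 12 fits, with adjusted p up to 0.20.

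For Lsi6 the lines moved in opposite directions, at 0.99 in IR64 and -1.24 in OsEPF1-oe (difference -2.23, interaction adjusted p = 0.015). With only the 12 libraries compared, the adjusted p was 0.49. Leaving out 1 library gave differences from -2.68 to -1.95 and ended the call in 6 of 12 fits, with adjusted p up to 0.10.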

How the results depend on the processing

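The count of genes called between stages 2 and 3 of IR64 (5253) ran from 3664 with only the groups compared to 6037 with DESeq2, and from 3719 to 4676 when 1 library was left out. The OsEPF1-oe count ran from 4389 to 5135 and the step along the axis from 0.394 to 0.429 without 1 library. The 7 genes called for the difference between the lines became 2 with only the groups compared, 51 with DESeq2 and 0 to 11 without 1 library (0 without IR64 stage 2 replicate 1, IR64 stage 3 replicate 2, OsEPF1-oe stage 2 replicate 2 or 3, or OsEPF1-oe stage 3 replicate 2), and the cause was not tested. From stage 1 to stage 2 of IR64 the count of 2888 ran from 1620 (without stage 1 replicate 3) to 2322 and was 1761 without stage 2 replicate 1. From stage 3 to stage 4 the count of 4074 ran from 2920 to 3731 and was 2628 with only the groups compared. For 96 named genes, 1259 of 1343 values kept direction and call, 84 lost the call and 0 reversed. Of 148 called list members, 94 kept the call in all 6 fits without 1 library. Without stage 3 replicate 1, 38 lost it, and more lost it without stage 2 replicate 3. Of the 96 named genes, 13 lost the call without either of these libraries. Over all tested genes, 3719 were called without stage 2 replicate 3 and 4676 without stage 3 replicate 1. With a replicate block 5450 genes were called (3080 higher, 2370 lower), and 5 for the difference between lines. Deviations of same-numbered samples correlated at 0.32, 0.09 and 0.16, and stage 2 replicate 2 correlated best with stage 3 replicate 3 (0.14), so over all tested genes the rule for pairing was not met, and the block is an alternative only. The clock genes GI and LHY did follow the replicate number across the developing stages of IR64. Replicate 2 was also highest at each of these stages for TOC1, PRR37, PRR73, PRR95 and LUX. Promoter motif shares were not run, since no promoter sequences were used here. Genes near 1 CPM at stage 2 rest on few counts, which limits their fold changes.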

Other observations

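In IR64, replicate 2 was highest for GI and lowest for LHY at each developing stage. Replicate 2 was also highest at each developing stage for TOC1, PRR37, PRR73, PRR95 and LUX. TOC1, for example, stood at 49.7, 89.1 and 45.3 CPM in replicates 1 to 3 at stage 3. For PRR59 and ELF3-2 replicate 2 was highest at stages 1 to 4 but not at stage 5. ELF3-1 did not follow this pattern and stood at 14.7, 27.8 and 29.9 CPM in replicates 1 to 3 at stage 3. GI stood at 375, 713 and 175 CPM in replicates 1 to 3 at stage 1 and at 288, 551 and 170.4 CPM at stage 5. LHY stood at 716, 314 and 919 CPM at stage 1 and at 569.8, 208 and 850.5 CPM at stage 5. In OsEPF1-oe GI stood at 377, 429 and 446 CPM at stage 1, with no replicate apart in that way. The cause was not tested.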
